A study of Homo sapiens with 8 samples.

Results

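The genes described here are 35 that encode glucose transporters, glycolytic enzymes and products of the hypoxia response, measured in A375 melanoma cells that carried different forms of the long noncoding RNA SLNCR1. They were taken from a list of 35 symbols. A symbol counted if it was present in all 3 deposited comparison tables with a vector mean of at least 10 in the table of full-length SLNCR1, and 35 of 35 met that rule. The tables hold 56638 entries, of which 16343 reached that vector mean. By role the members are 2 glucose transporters, 15 glycolytic enzymes, 3 regulators of glycolytic flux, 2 prolyl hydroxylases that act on hypoxia-inducible factor (HIF), 5 secreted or cell-surface proteins, 2 mitophagy receptors, 3 enzymes of protein maturation and 3 nuclear or ankyrin-repeat proteins.

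HIF is a pair of transcription factor subunits that switches on genes when oxygen is scarce. With oxygen present, prolyl hydroxylases of the EGLN family mark its alpha subunit, and the VHL ligase has it degraded. Its classical targets include most steps of glycolysis, the switches that keep pyruvate out of mitochondria, angiogenic and pH-regulating proteins, mitophagy receptors and collagen-modifying enzymes. Many melanoma lines express part of this program in normal oxygen and make lactate in the presence of air.

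A375 is an established human malignant melanoma line. Cells kept in medium with 10% serum were transfected by lipofection, 24 h after they were seeded, and lysed for RNA 48 h later. All 4 groups received the plasmid pcDNA3.1(-): empty in the vector group, or with full-length SLNCR1, with only its conserved region (SLNCR1 conserved), or with SLNCR1 lacking that region (SLNCR1 delta conserved). Each group had 2 poly(A)-selected libraries, and the labels do not state whether these were separate cultures, so p-values measure only the spread between these libraries, which may be technical. The transfected population was not sorted, the constructs share vector cells as their only control, and the labels name no change of oxygen.

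Reads assigned to genes ranged from 8222868 to 12015394 per library. The library with more reads in a group is labelled a and the one with fewer b, and the values do not show which of them is replicate 1. Depth fell with the group: 12015394 and 11321294 reads in vector, 11262195 and 10209954 with SLNCR1 conserved, 10097194 and 9090649 with SLNCR1, and 9187241 and 8222868 with SLNCR1 delta conserved. The first principal component of all tested genes (41.2% of the variance) set vector and SLNCR1 conserved apart from SLNCR1 and delta conserved. It was at -20.3 to -14.09 in the former libraries and at 14.29 to 26.95 in the latter. On the second principal component (16%), library b of SLNCR1 was set off from the rest, at 24.03 against -18.31 to 4.957 for the other libraries. LINC00511, the entry whose locus covers the RefSeq gene for SLNCR1, stood at 621 to 628 normalized counts in vector and at 865 to 1155 in the libraries of the 3 constructs. The melanoma marker SOX10 was present at 2939 to 3704 normalized counts, while the pigment enzyme genes TYR and DCT were at 0 to 1.78 and 0 to 5.05. Summed over 6 leukocyte markers, levels were 84.4 to 103 in vector, 129 to 134 with SLNCR1 conserved, 27.2 to 29.8 with SLNCR1 and 25.6 to 34.1 with SLNCR1 delta conserved. Of these ITGAM was at 60.4 to 114 in vector and SLNCR1 conserved and at 5.56 to 15.2 in the other libraries. The defining leukocyte marker PTPRC was at 0 to 2.23, CD3E was at 0 in 7 of 8 libraries, and the part of this list in the results below was not tested.

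The promoters of members are shown because HIF binds the letters ACGTG or GCGTG. RefSeq windows of 300 bases on GRCh38.p14, from 250 before to 50 after a transcript start, were found for 31 members (50 windows). BNIP3L, SLC2A3, STC1 and VEGFA had none. Searched on both strands, ACGTG was in 46% of the members' windows and in 21.4% of all 35114 windows, GCGTG in 46% and 36.5%, and either in 74% and 48.4%. By gene, either was in 28 of 31 members and in 14318 of 27303 genes. The list was drawn up of glycolysis genes and HIF targets, so these shares are no independent test. Windows of 1 gene can overlap, and CACGTG, a palindrome that other factors also bind, counts as ACGTG on both strands. EGLN3, P4HA2 and PGAM1 held neither in their windows. Such letters are a description and not a measured site. The 250 bases before the start are printed 5′ to 3′ for 6 members to which the results below return, with the ACGTG and GCGTG letters and their reverse complements in capitals.
PGK1, chrX:78103998-78104247, plus strand: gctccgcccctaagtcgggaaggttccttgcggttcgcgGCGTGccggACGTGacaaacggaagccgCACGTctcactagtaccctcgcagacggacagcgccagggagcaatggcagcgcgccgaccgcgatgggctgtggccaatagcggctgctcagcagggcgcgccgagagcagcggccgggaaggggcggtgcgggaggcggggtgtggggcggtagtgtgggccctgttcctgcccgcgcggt
LDHA, chr11:18394313-18394562, plus strand: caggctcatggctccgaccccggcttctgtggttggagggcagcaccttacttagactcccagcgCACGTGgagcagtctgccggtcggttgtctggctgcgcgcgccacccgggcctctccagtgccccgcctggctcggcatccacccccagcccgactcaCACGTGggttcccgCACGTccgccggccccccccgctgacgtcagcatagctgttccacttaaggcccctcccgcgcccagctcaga
BNIP3, chr10:131981924-131982173, minus strand: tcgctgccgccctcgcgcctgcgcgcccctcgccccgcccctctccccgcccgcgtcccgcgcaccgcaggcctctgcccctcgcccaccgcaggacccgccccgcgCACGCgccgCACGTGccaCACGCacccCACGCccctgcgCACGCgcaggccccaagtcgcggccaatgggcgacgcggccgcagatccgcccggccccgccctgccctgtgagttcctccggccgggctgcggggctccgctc
PFKFB4, chr3:48556804-48557053, minus strand: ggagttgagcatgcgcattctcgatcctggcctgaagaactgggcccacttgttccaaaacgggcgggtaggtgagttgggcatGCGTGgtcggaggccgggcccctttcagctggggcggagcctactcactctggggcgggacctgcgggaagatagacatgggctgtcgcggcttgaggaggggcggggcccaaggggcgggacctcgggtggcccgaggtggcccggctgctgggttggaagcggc
CA9, chr9:35673678-35673927, plus strand: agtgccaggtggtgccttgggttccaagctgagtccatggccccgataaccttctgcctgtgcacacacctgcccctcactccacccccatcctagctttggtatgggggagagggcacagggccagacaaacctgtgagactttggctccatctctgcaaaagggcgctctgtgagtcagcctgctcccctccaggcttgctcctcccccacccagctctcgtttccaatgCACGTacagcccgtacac
ANGPTL4, chr19:8363905-8364154, plus strand: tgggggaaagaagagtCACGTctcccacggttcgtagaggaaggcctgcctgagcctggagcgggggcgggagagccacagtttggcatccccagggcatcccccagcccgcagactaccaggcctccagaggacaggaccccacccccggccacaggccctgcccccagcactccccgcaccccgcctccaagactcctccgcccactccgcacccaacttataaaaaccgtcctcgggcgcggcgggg
LDHA held 5 ACGTG matches in these bases, 4 of them in 2 CACGTG palindromes, and BNIP3 held 2 ACGTG and 4 GCGTG matches close together. PGK1 had 2 and 1, PFKFB4 a single GCGTG, and CA9 and ANGPTL4 a single ACGTG each.

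With SLNCR1 delta conserved, most glucose uptake and glycolysis genes rose by modest amounts. The larger differences were in the secreted or surface products STC1, ANGPTL4 and CA9, of which STC1 alone passed the authors' test. The secreted products VEGFA and ADM differed by log2 -0.02 and 0.12 without passing. Of the 35 members, 17 were higher than in vector at an adjusted p under 0.05 in the authors' deposited table, 0 were lower and 18 did not pass. Of all 34744 entries tested there, 1.11% were called higher and 1.14% lower. Of the 16343 entries past the vector mean minimum, as all members were, 2.35% were called higher and 2.43% lower. The members' median log2 change in the authors' deposited table was 0.30, with 31 above 0 and 4 below. Over all entries past the vector mean minimum the median was -0.01, with 47.6% above 0. In a limma fit of the library values, 22 members passed as higher and 0 as lower, where 5.18% of 16064 genes were called higher and 5.24% lower. Scaling to library totals instead split the calls over all genes from 832 higher and 842 lower to 503 and 1148, and 21 members passed. Both delta-conserved libraries lay above both vector libraries for 28 of the 35 members, beside 27.7% of all genes tested. In these bulk samples a change in the share of cells of one state and a change in RNA per cell cannot be told apart.

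**Figure D1:**
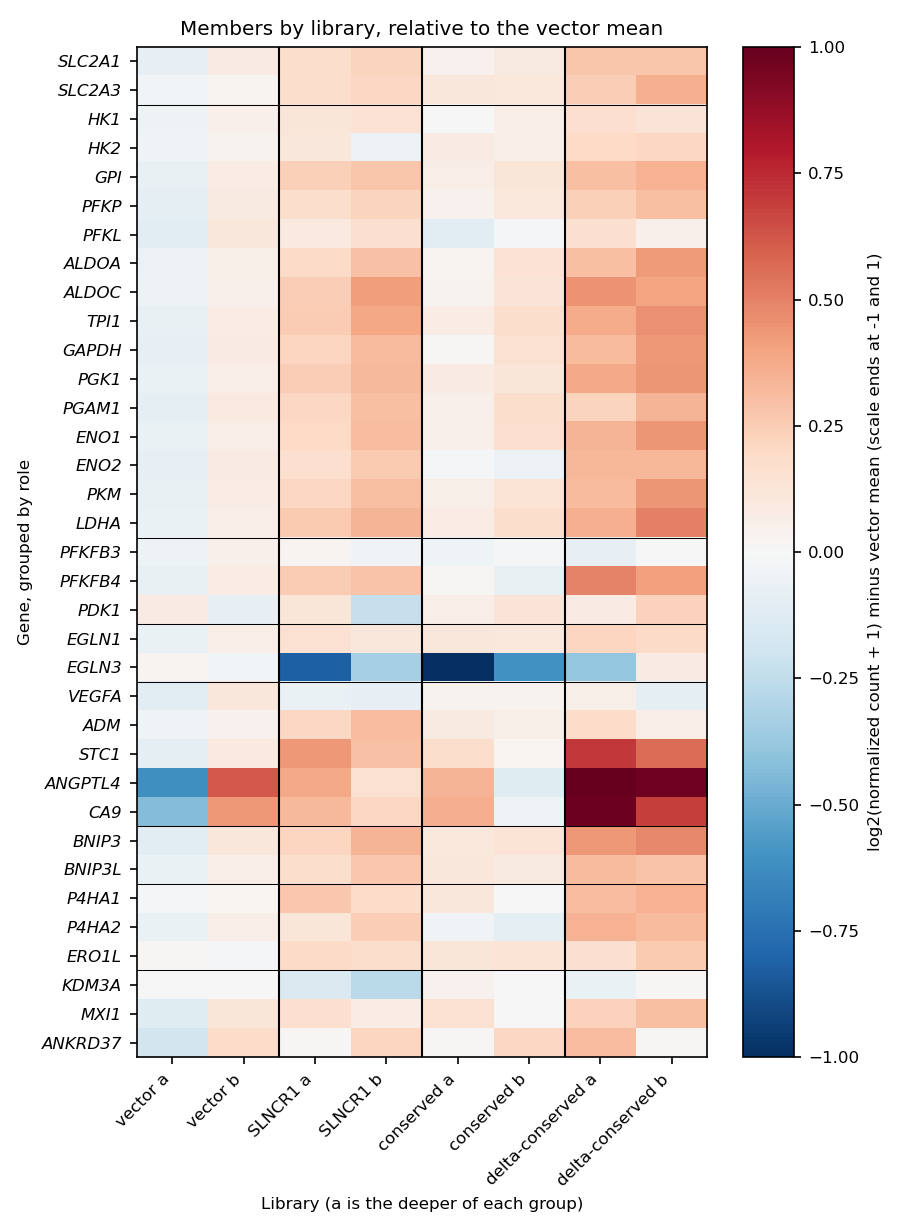
Heat map of log2(normalized count + 1) minus the vector mean for each of the 35 members (rows, separated by role) in the 8 libraries (columns, 2 per group). The delta-conserved columns are above the vector mean for most rows, the SLNCR1 columns less so, and ANGPTL4 and CA9 differ most between the vector libraries.

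Glucose enters through the transporters SLC2A1 (GLUT1) and SLC2A3 (GLUT3). SLC2A1 stood at 2135 and 2399 normalized counts in vector libraries a and b, 2555 and 2646 with SLNCR1, 2331 and 2409 with SLNCR1 conserved, and 2739 and 2749 with SLNCR1 delta conserved. All delta-conserved and SLNCR1 values lay above vector, and the conserved-region values overlapped it. In the authors' deposited table SLC2A1 rose with delta conserved by a log2 of 0.27 (adjusted p = 0.0206) and SLC2A3 by 0.30 (adjusted p = 0.0463). Their log2 differences with SLNCR1, 0.20 each, did not pass the authors' test.

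The hexokinases HK1 and HK2, which trap glucose in the cell, were among the enzymes that did not pass. HK2 was at 2006 and 2098 normalized counts in vector, 2219 and 1967 with SLNCR1, 2176 and 2146 with SLNCR1 conserved, and 2361 and 2365 with SLNCR1 delta conserved. The delta-conserved libraries were the highest, and the SLNCR1 libraries spanned the vector values. HK2 and HK1 differed from vector by log2 0.20 and 0.14 for delta conserved in the authors' deposited table (adjusted p = 0.183 and 0.604). The phosphofructokinases PFKP and PFKL, which commit sugar to glycolysis, differed by 0.26 and 0.10, without a call in the authors' deposited table (adjusted p = 0.0906 and 1). PFKP passed in limma (adjusted p = 0.0225).

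From the aldolases to lactate dehydrogenase, each step except phosphoglycerate mutase had a gene that rose with delta conserved. PGK1, which makes the first ATP of the pathway, stood at 2495 and 2742 normalized counts in vector, 3108 and 3273 with SLNCR1, 2764 and 2848 with SLNCR1 conserved, and 3400 and 3549 with SLNCR1 delta conserved. The groups did not overlap for PGK1 and lay in the order vector, conserved, SLNCR1 and delta conserved, and no pair of neighbours in that order passed limma (adjusted p = 0.829, 0.0933 and 0.685). LDHA, which turns pyruvate into lactate, followed the same order of means: 1992 and 2184 in vector, 2199 and 2350 with SLNCR1 conserved, 2501 and 2645 with SLNCR1, and 2675 and 2960 with SLNCR1 delta conserved. The rises in the authors' deposited table were 0.40 for PGK1 (adjusted p = 5.96e-06) and 0.43 for LDHA (adjusted p = 0.00461). In limma they were 0.41 ± 0.069 (SE, adjusted p = 0.00161) and 0.43 ± 0.074 (adjusted p = 0.00169).

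Of the 15 glycolytic enzymes, 10 rose by the authors' test: GPI, ALDOA, ALDOC, TPI1, GAPDH, PGK1, ENO1, ENO2, PKM and LDHA, by log2 0.32 to 0.43. The triose phosphate isomerase TPI1 rose by 0.41 and the brain-type aldolase ALDOC by 0.42. The housekeeping reference GAPDH rose by 0.37 (adjusted p = 0.012 in the authors' deposited table), from 1635 and 1832 normalized counts in vector to 2161 and 2340. Both delta-conserved libraries were above both vector libraries, as for PKM, the pyruvate kinase, at 4427 and 4897 in vector and 5811 and 6327 with delta conserved. PGAM1, the mutase between PGK1 and enolase, differed by 0.28 without passing (adjusted p = 0.354 in the authors' deposited table). Several of these genes have processed pseudogenes, so how shared reads were assigned is uncertain. Entries named as GAPDH pseudogenes held 13.4% as many reads as GAPDH over all libraries, those of PGAM1 6.02%, those of TPI1 2.99% and those of LDHA 2.15%.

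Among the flux regulators a single gene rose. PFKFB4, whose product makes and removes the activator of phosphofructokinase, was at 1352 and 1506 normalized counts in vector, 1706 and 1742 with SLNCR1, 1439 and 1358 with SLNCR1 conserved, and 2009 and 1898 with SLNCR1 delta conserved. Both delta-conserved libraries exceeded all others, and the conserved-region libraries lay within the vector range. The rise with delta conserved was 0.45 in the authors' deposited table (adjusted p = 7.55e-06). Its relative PFKFB3 did not pass, at 1266 and 1360 normalized counts in vector and 1241 and 1313 with delta conserved. PDK1, the kinase that shuts pyruvate dehydrogenase, differed by 0.15 with delta conserved without passing (adjusted p = 1 in the authors' deposited table), and its libraries overlapped vector.

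The secreted and surface products covered the widest range. STC1, a secreted glycoprotein hormone, stood at 371 and 423 normalized counts in vector, 536 and 486 with SLNCR1, 447 and 401 with SLNCR1 conserved, and 649 and 583 with SLNCR1 delta conserved. Both delta-conserved libraries lay above all others, with the SLNCR1 libraries next. STC1 rose with delta conserved by 0.63 in the authors' deposited table (adjusted p = 2.72e-05) and by 0.63 ± 0.094 in limma (SE, adjusted p = 0.000404).

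ANGPTL4, a secreted inhibitor of lipoprotein lipase, had the largest log2 difference among members and, on the log2 scale, the widest gap between the vector libraries. Its libraries were at 94.7 and 224 normalized counts in vector (117 and 252 reads), 190 and 162 with SLNCR1, 184 and 134 with SLNCR1 conserved, and 358 and 287 with SLNCR1 delta conserved. CA9, a membrane carbonic anhydrase that disposes of acid, was likewise at 198 and 362 in vector, 334 and 308 with SLNCR1, 345 and 260 with SLNCR1 conserved, and 529 and 433 with SLNCR1 delta conserved. For both genes the delta-conserved libraries were the highest and vector library a the lowest. The log2 differences for delta conserved in the authors' deposited table, 1.01 for ANGPTL4 and 0.78 for CA9, did not pass (adjusted p = 0.366 and 0.445). In limma, which shares the spread across genes and groups, they were 1.13 ± 0.26 (SE, adjusted p = 0.00969) and 0.84 ± 0.19 (adjusted p = 0.01).

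The angiogenic factor VEGFA, a textbook HIF target, gave no call. It was at 1367 and 1596 normalized counts in vector, 1410 and 1392 with SLNCR1, 1516 and 1513 with SLNCR1 conserved, and 1542 and 1383 with SLNCR1 delta conserved. Each construct's values lay within the vector range, and those of SLNCR1 were below those of SLNCR1 conserved. Its log2 difference with delta conserved was -0.02 in the authors' deposited table (adjusted p = 1). The vasodilator peptide gene ADM differed from vector by 0.12 (delta conserved) and 0.26 (full length) and passed in neither of the authors' deposited tables.

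**Figure D2:**
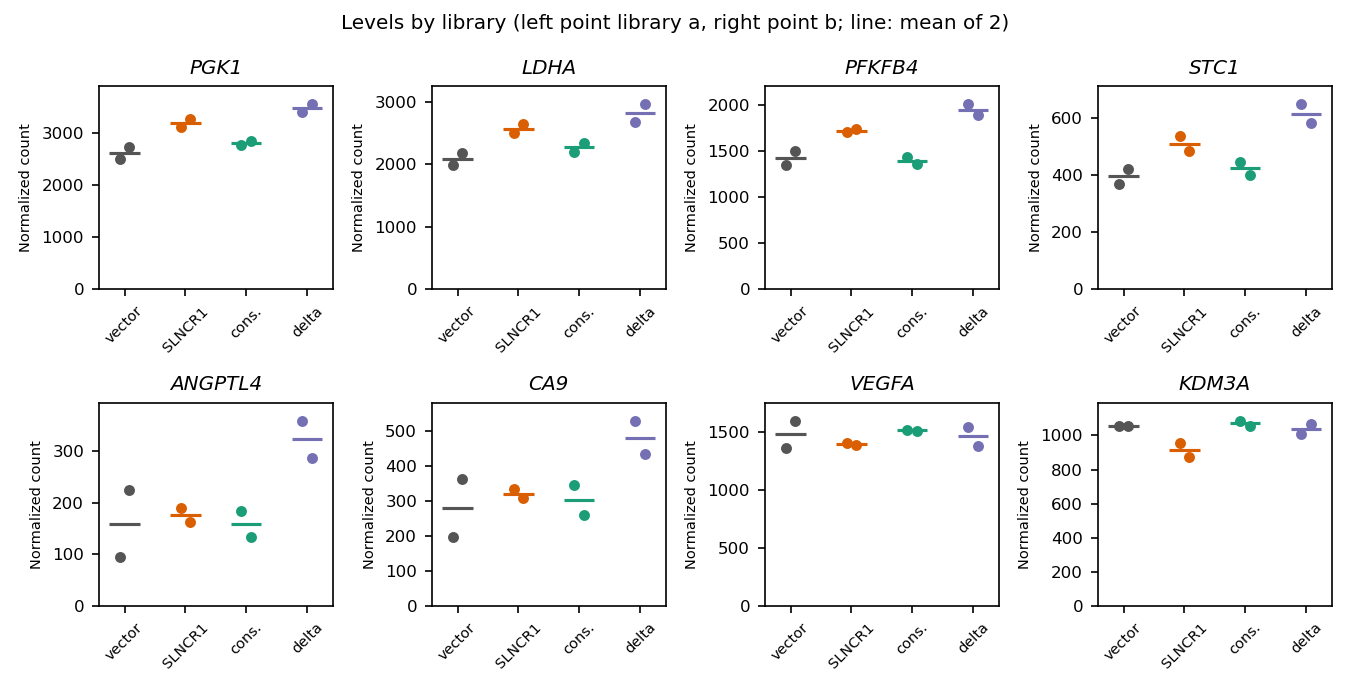
Normalized counts (linear axes from 0) of 8 members in each library, left point library a and right point library b, with a line at the mean of the 2. PGK1, LDHA, PFKFB4 and STC1 are highest with delta conserved, ANGPTL4 and CA9 are split between the vector libraries, and VEGFA and KDM3A are not higher with delta conserved.

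BNIP3 and BNIP3L, receptors that send mitochondria for degradation, were both above every vector value in the delta-conserved libraries. BNIP3 was at 687 and 806 normalized counts in vector, 866 and 943 with SLNCR1, 800 and 820 with SLNCR1 conserved, and 1006 and 1038 with SLNCR1 delta conserved. It rose with delta conserved by 0.45 in the authors' deposited table (adjusted p = 0.00137), and BNIP3L differed by 0.30 (adjusted p = 0.055 there and 0.0133 in limma). The collagen prolyl 4-hydroxylase subunits P4HA1 and P4HA2 rose by 0.32 and 0.33 (adjusted p = 0.023 and 0.0357 in the authors' deposited table). ERO1L, an oxidase that forms disulfide bonds in the endoplasmic reticulum, differed by 0.21 and passed in limma alone (adjusted p = 0.0485).

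The oxygen-sensing feedback genes and the nuclear members gave no call in any of the authors' tables. EGLN1, the main HIF prolyl hydroxylase, differed by 0.20 with delta conserved, and EGLN3, a related hydroxylase, was scarce. It stood at 31.6 and 30.2 normalized counts in vector, 17.1 and 24.3 with SLNCR1, 13.4 and 20 with SLNCR1 conserved, and 23.4 and 32.8 with SLNCR1 delta conserved. Its log2 difference of -0.91 with SLNCR1 conserved in the authors' deposited table did not pass after adjustment (adjusted p = 1). The histone demethylase KDM3A was at 1054 and 1057 in vector, 955 and 876 with SLNCR1, 1085 and 1058 with SLNCR1 conserved, and 1007 and 1067 with SLNCR1 delta conserved. Its SLNCR1 libraries were the lowest of the 8. MXI1, an antagonist of MYC, and ANKRD37, an ankyrin-repeat protein gene, differed by 0.26 and 0.15 for delta conserved in the authors' deposited table without passing.

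With full-length SLNCR1 the differences of most members pointed the same way and were smaller, and the call depended on the test. No member passed in the authors' deposited table (0 of 35), while 0.882% of its 33548 tested entries did, 0.0388% as higher and 0.844% as lower. Of the 16343 entries past the vector mean minimum 1.81% passed, 0.0795% as higher and 1.73% as lower. Before adjustment, 18 members had p under 0.05 as higher and 0 as lower, beside 2.64% and 3.62% of entries. Past the vector mean minimum these were 873 and 1187 of 16343 entries. The members' median log2 change was 0.20, with 30 above 0 and 5 below. Over all entries past the vector mean minimum the median was 0.00, with 49.4% above 0. In limma 14 members were higher and 0 lower, where 3.97% of genes were called higher and 7.4% lower: GPI, ALDOA, ALDOC, TPI1, GAPDH, PGK1, ENO1, PKM, LDHA, PFKFB4, ADM, STC1, BNIP3 and P4HA1. The largest of these were STC1 at 0.37 ± 0.094 (SE, adjusted p = 0.0216 in limma) and ALDOC at 0.33 ± 0.077 (adjusted p = 0.0116 in limma). Leaving out vector library a took the limma count to 0, and leaving out vector library b to 18. It was 21 when SLNCR1 library a was left out and 2 when SLNCR1 library b was. The calls over all genes moved with it, from 1826 to 4333 and 762, and to 317 and 1499 without vector library a and b.

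With SLNCR1 conserved no member passed (0 of 35), beside 0.0175% of the 34347 entries tested in the authors' deposited table. Of entries past the vector mean minimum 0.0367% passed. Before adjustment EGLN3 alone had p under 0.05 as lower and 0 members as higher, beside 0.614% and 0.725% of entries. Past the vector mean minimum these were 204 and 244 of 16343 entries. limma likewise called 0 members, beside 0.00623% of all genes, and 1 member before adjustment, beside 5.45% of all genes. The median of the members was 0.07, with 80% (28) above 0, beside a median of 0.00 and 49.7% above 0 over all entries past the vector mean minimum, and apart from EGLN3 the authors' log2 changes lay between -0.08 and 0.11.

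**Figure D3:**
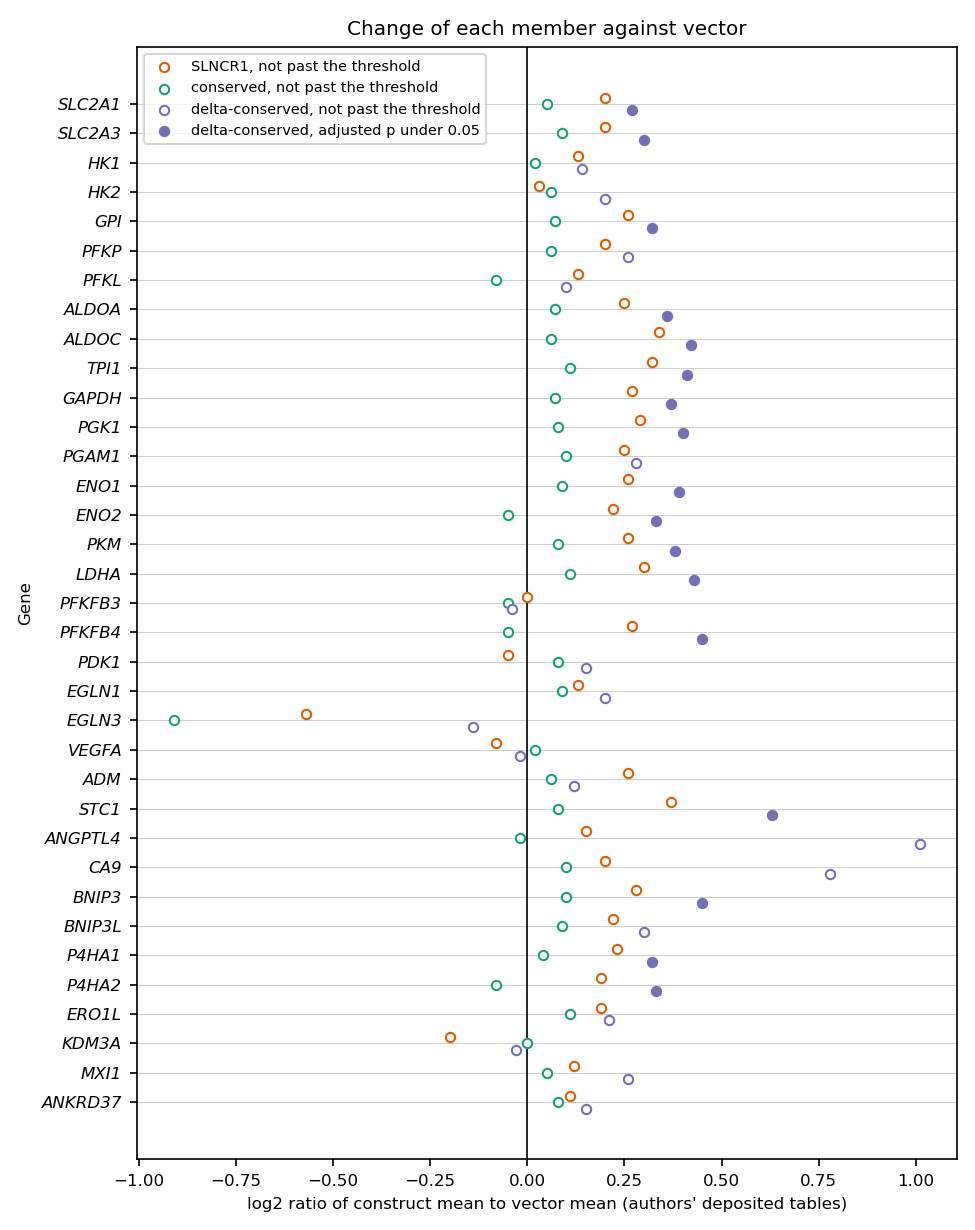
Log2 ratio of each construct's mean to the vector mean in the authors' deposited tables (horizontal axis) for the 35 members (vertical axis), filled where the authors' adjusted p was under 0.05. The 17 filled points all belong to delta conserved, and the conserved-region points lie near 0 apart from EGLN3.

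The distribution of all entries serves as a scale for these shifts. With delta conserved the members' curve lay to the right of that of all 16343 entries over most of its range. With full-length SLNCR1 it did so by less, up to a log2 of 0.32. For SLNCR1 conserved the shift was the least and held only from -0.54 to 0.08. At higher values the order turned. At 0.38 with SLNCR1, 100% of members and 97.71% of entries lay at or below, and at 0.12 with SLNCR1 conserved 100% and 86.54%. The 3 comparisons share the vector libraries, so they are not independent of each other.

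**Figure D4:**
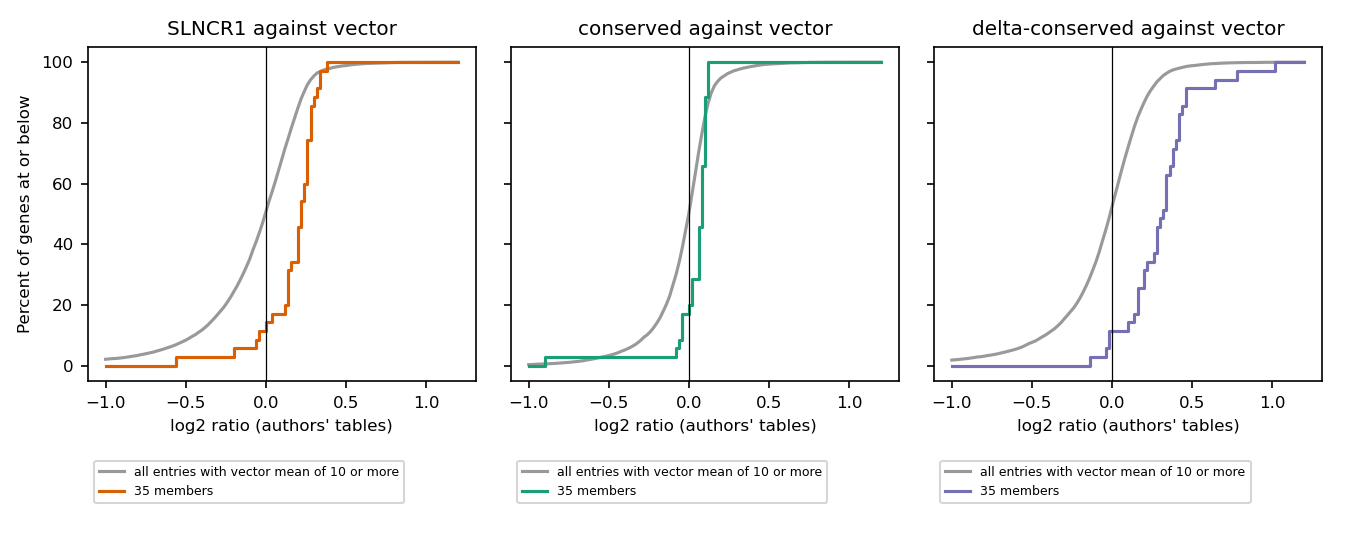
Cumulative percent of genes (vertical axis) at or below each log2 ratio to vector (horizontal axis, authors' deposited tables) for the 35 members and for all entries with a vector mean of 10 or more, 1 panel per construct. The members' median is 0.20 for SLNCR1, 0.07 for SLNCR1 conserved and 0.30 for SLNCR1 delta conserved.

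Direct comparison of the constructs does not use the vector libraries, apart from the shared scaling, filter on the mean and estimate of spread. Between SLNCR1 conserved and delta conserved, limma called 17 of 35 members as lower with the conserved region and 0 as higher, where 1.12% of 16064 genes were called lower and 5.78% higher, and the members' median was -0.24. They were 10 glycolytic enzymes (GPI, ALDOA, ALDOC, TPI1, GAPDH, PGK1, ENO1, ENO2, PKM and LDHA), PFKFB4, STC1, ANGPTL4, CA9, BNIP3, P4HA1 and P4HA2. PFKFB4 differed by -0.48 ± 0.071 (SE, adjusted p = 0.000256 in limma) and STC1 by -0.54 ± 0.094 (adjusted p = 0.00131 in limma). ANGPTL4 differed by -1.02 ± 0.26 (adjusted p = 0.0193 in limma). Both conserved-region libraries lay below both delta-conserved ones for 29 of the 35 members, beside 28.9% of all genes. Without conserved-region library a the count was 6, without its library b 3, and without delta-conserved library a or b 4, while the 1108 calls over all genes became 429, 426, 479 and 582. PFKFB4 and STC1 passed in each of these 4 fits.

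Full-length SLNCR1 differed from SLNCR1 conserved in 5 members, of which 4 were higher (ALDOC, ENO2, PFKFB4 and P4HA2) and 1 lower (KDM3A), where limma called 2.05% of genes higher and 9.45% lower (329 and 1518, or 568 and 1425 with trimmed-mean scaling). PFKFB4 was higher by 0.30 ± 0.071 (SE, adjusted p = 0.009 in limma) and KDM3A differed by -0.23 ± 0.07 (adjusted p = 0.0427 in limma). Leaving out SLNCR1 library a took the 5 to 11, and leaving out its library b to 2. Leaving out conserved-region library a took it to 1, and its library b to 0. Over all genes the 1847 calls became 4013, 1144, 708 and 797 in the same order.

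Between full-length SLNCR1 and delta conserved no member passed. limma called 0 of 35 members and 0% of 16064 genes, with 8 members and 1284 genes (7.99%) under 0.05 before adjustment. The median was -0.11, with 32 members below 0 and 3 above, where 49.1% of all genes were above 0. The 95% intervals of the difference, unadjusted, ran from -0.27 to 0.02 for PGK1, from -0.47 to -0.07 for STC1 and from -1.40 to -0.33 for ANGPTL4. Without SLNCR1 library a the count was 6, in a fit that called 1224 of 16082 genes.

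The level of the glycolytic enzymes moved with read depth across libraries as well as with the construct. Summed over the 15 glycolytic enzymes, normalized counts were 31133 and 34325 in vector libraries a and b, 33642 and 35439 with SLNCR1 conserved, 37476 and 39325 with SLNCR1, and 40221 and 42142 with SLNCR1 delta conserved. In each group the shallower library had the higher sum, and across the 8 libraries the sum rose as depth fell except for 2 pairs of neighbours. Of the 15 enzymes 10 were higher in library b in all 4 groups, beside 12.5% of all genes tested. The reads of PGK1 before normalization were nearly level: 3081 and 3087 in vector, 3103 and 2848 with SLNCR1 conserved, 3088 and 2965 with SLNCR1, and 3056 and 2810 with SLNCR1 delta conserved. Not every member was so: STC1 had 458 and 476 reads in vector and 583 and 462 with delta conserved. VEGFA had 1688 and 1797 in vector and 1386 and 1095 with delta conserved.

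Of all 35 members, 12 were higher in library b in all 4 groups. By group, 32 were higher in b in vector, 23 with SLNCR1, 20 with SLNCR1 conserved and 21 with delta conserved. Over all genes tested these shares were 54.2%, 51.6%, 54% and 53.4%. HK2, ENO2, PFKFB4, PDK1, ADM, BNIP3L, P4HA1, P4HA2, ERO1L, KDM3A and MXI1 were higher in b in 2 of 4 groups. STC1, ANGPTL4, CA9, VEGFA and EGLN1 were so in 1 of 4. With log2 of each library's reads as a term in limma, chosen after these values were seen, 0 members passed against vector with delta conserved (4 at an unadjusted p under 0.05, beside 852 of 16064 genes), and 11 genes passed in all. The median standard error of the members went from 0.074 to 0.15, since depth and group largely coincide. In that fit GAPDH differed from vector by 0.00 ± 0.13 (SE), ENO1 by 0.04 ± 0.12 and LDHA by 0.09 ± 0.13. STC1 differed by 0.93 ± 0.21 (adjusted p = 0.407 in limma), PFKFB4 0.49 ± 0.16 (adjusted p = 0.842) and P4HA1 0.43 ± 0.15 (adjusted p = 0.881). Depth and construct cannot be told apart across these groups.

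**Figure D5:**
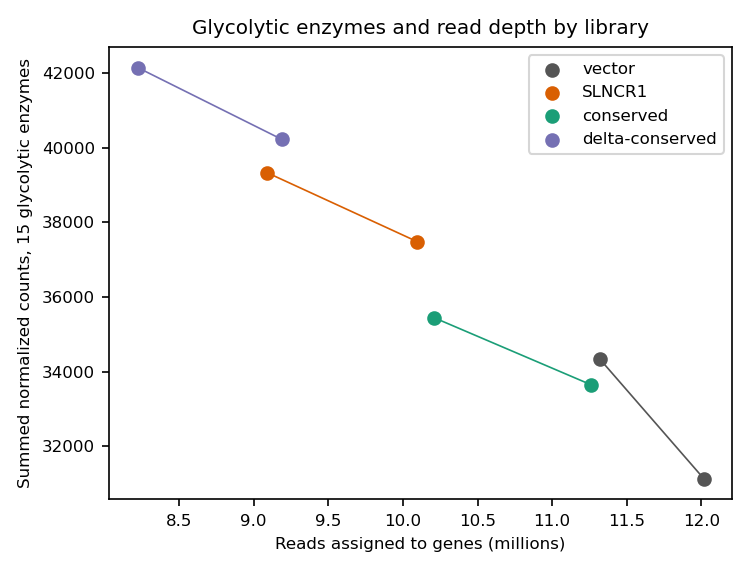
Summed normalized counts of the 15 glycolytic enzymes (vertical axis, not starting at 0) against the reads assigned to genes (horizontal axis), 1 point per library, with a line joining the 2 libraries of a group. The sum runs from 31133 in the deepest library to 42142 in the shallowest, and each line slopes the same way.

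Leaving out libraries moved the delta-conserved calls as well. The 22 limma calls against vector numbered 4 when vector library a was left out and 24 when vector library b was. They numbered 14 when delta-conserved library a was left out and 5 when delta-conserved library b was. Over all genes the 1674 calls became 271, 1271, 743 and 325 in the same 4 fits. PGK1, PFKFB4 and STC1 passed in each of these 4 fits. ANGPTL4 and CA9 passed in 1 of them each, and vector library a held the lowest value of both.

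The genes of the HIF pathway itself were measured too. HIF1A, the inducible alpha subunit, was at 2476 and 2630 normalized counts in vector and 2725 and 2834 with delta conserved, and its log2 difference of 0.12 did not pass (adjusted p = 0.955 in the authors' deposited table). EPAS1, the second alpha subunit, differed by 0.16, and its partner ARNT by -0.03. The ligase gene VHL differed by 0.23 and the hydroxylases EGLN2 and HIF1AN by -0.18 and 0.04, all without passing in the authors' deposited table. VHL passed in limma (adjusted p = 0.0333). Of 18 core genes and regulators measured, 2 rose with delta conserved: GNB2L1, a scaffold that promotes loss of the alpha subunit, by 0.31 and HSP90AA1, a chaperone that stabilizes it, by 0.34, where 1.11% of all entries in the authors' deposited table were called higher. limma called 5 of the 18 higher and 0 lower, where it called 5.18% and 5.24% of all genes. HIF is controlled largely at the protein level, which was not measured here.

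Further HIF targets outside the 35 genes gave 8 of 51 higher and 0 lower for delta conserved in the authors' deposited table, with a median of 0.20 beside -0.01 over all entries past the vector mean minimum. Of entries past that minimum 2.35% were called higher there and 2.43% lower. Before adjustment 23 of these targets were higher and 4 lower, beside 1469 and 1256 of the 16343 entries past the minimum. In limma 17 of 53 targets were higher and 2 lower, where it called 5.18% and 5.24% of all genes. The 4 with the lowest adjusted p were GPRC5A at 0.33, the growth factor TGFA at 0.32, the lysyl hydroxylase PLOD1 at 0.30 and the stress gene NDRG1 at 0.56. NDRG1 stood at 1543 and 1993 normalized counts in vector and 2664 and 2562 with delta conserved, above all other libraries. With SLNCR1 the authors' test called 0 of 51 (4 higher and 2 lower before adjustment, beside 873 and 1187 of 16343 entries). With SLNCR1 conserved it called 0 of 51 (2 higher and 0 lower before adjustment, beside 244 and 204 of 16343 entries). In limma, 4 of 53 were higher and 2 lower with SLNCR1, beside 3.97% and 7.4% of all genes. For SLNCR1 conserved 0 passed in limma, beside 0.00623% of all genes.

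Neighbouring carbohydrate pathways were read for delta conserved in the authors' deposited table, where 1.11% of all entries were called higher and 1.14% lower. Past the vector mean minimum, 2.35% of entries were called higher and 2.43% lower. Of 20 other glycolytic isoforms and branches measured, LDHB, the second lactate dehydrogenase subunit, rose by 0.41 (adjusted p = 0.00256), ENO3, the muscle enolase, fell by a log2 of 0.54 (adjusted p = 0.00392), and 18 did not pass. ENO3 was at 433 and 404 normalized counts in vector and 293 and 287 with delta conserved, opposite in direction to ENO1 and ENO2. Of 8 pentose phosphate genes TKT, a transketolase, rose by 0.32. Of 13 genes of pyruvate dehydrogenase and its kinases 0 passed, also by limma. Before adjustment 2 of the 13 were higher, beside 1469 of the 16343 entries past the vector mean minimum. limma called 4 of the 20 isoforms and branches higher and 1 lower with delta conserved, and 2 of the 8 pentose phosphate genes higher. Over all genes it called 5.18% higher and 5.24% lower. With SLNCR1 0 genes of these lists passed the authors' test, beside 1.81% of entries past the vector mean minimum. Before adjustment, 2 of the glycolytic isoforms and branches were higher and 1 lower, 4 pentose phosphate genes were higher and 1 pyruvate dehydrogenase gene was lower. Over the 16343 entries past that minimum, 873 were higher and 1187 lower before adjustment. In limma, 2 of the isoforms and branches and 4 pentose phosphate genes passed as higher with SLNCR1 and 1 isoform as lower. Of all genes 3.97% passed as higher there and 7.4% as lower. With SLNCR1 conserved 0 genes of these lists passed either test. Before adjustment 1 pyruvate dehydrogenase gene was higher with SLNCR1 conserved, beside 244 of 16343 entries.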

How the data were processed

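The tools named in the submitters' processing notes are STAR, featureCounts and DESeq, and the build is hg19. For their versions and strand setting the sources used here give nothing. The library kit in the labels' protocols does not mark strand, so antisense reads cannot be told apart. The deposited signal is the authors' mean over 2 libraries of reads divided by size factors. The deposited fold is the authors' ratio of those means. Its log2 was computed here. Each deposited p-value, raw or adjusted, is the authors' own. Each table was normalized on its own.

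Library reads were recovered by solving each mean for 2 whole numbers. Where several solutions remained for a mean above 100, only those whose 2 libraries differed by at most a log2 of 1 were kept. Such a choice favours libraries that are alike. With that rule a single solution remained for 100% of entries with reads (99.981% with SLNCR1 conserved). The 6 unsolved entries were left out of the totals of SLNCR1 conserved and of limma. A further 4 entries with duplicated identifiers were left out. limma 3.58.1 (R 4.3.3, trend) was fitted to log2(normalized count + 1) of all 4 groups. It covered 16064 genes whose mean reached 10, used Benjamini-Hochberg adjustment, and was run after a test on simulated data. Calls against vector use the authors' adjusted p under 0.05, and calls between constructs use limma. Fold changes on this scale understate those of low genes.

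Members, lists and tests were chosen with earlier results of these data known. All members could be named, and of other lists up to 4 passing genes with the lowest adjusted p and 6 core HIF genes. Of the members, 34 match current symbols, and ERO1L is a synonym of ERO1A in RefSeq. Alternatives were scaling, filter, pseudocount, threshold, samples fitted, each library left out, and depth as a term, the last chosen after seeing the data.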

Additional observations from a re-analysis of the deposited data

How the results depend on the processing

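Members called in the main tests did not reverse direction under the alternatives tried. Uncalled members could: with delta conserved against vector, depth as a term took PGAM1 from 0.28 to -0.09, PFKL from 0.11 to -0.04 and ANKRD37 from 0.16 to -0.08. No paired analysis was possible because the deposited columns are group means and the recovered libraries carry no replicate number. Against vector, members called with full-length SLNCR1, 0 in the authors' test, were 14 in limma, 16 with trimmed-mean scaling, 13 with library totals (12 higher, 1 lower), 16 with a mean of at least 50, 14 with a pseudocount of 5, 4 with only the 2 groups compared, 0 with no filter, 0 with depth as a term, and 0 to 21 with each library left out (18 without vector library b). With delta conserved, the authors' test called 17 and limma 22, and limma called 26 with only the 2 groups, 15 with no filter, 0 with read depth as a term (chosen after seeing the data), and 4 to 24 with each library left out. Every alternative gave 0 with SLNCR1 conserved. Conserved against delta conserved, 17 became 22 with only the 2 groups, 18 with trimmed-mean scaling or library totals, 5 with no filter, 0 with depth as a term, and 3 to 6 with each library left out. SLNCR1 against conserved, 5 became 8 at an adjusted p under 0.1, 10 with library totals, 1 with no filter, 1 with only the 2 groups, 0 with depth as a term, and 0 to 11 with each library left out. SLNCR1 against delta conserved, 0 became 0 to 6. With a library left out, the lone library of its group is assumed to vary like the others. All-gene counts moved too. With delta conserved, limma called 1674 genes, 2366 with only the 2 groups, 652 with no filter and 11 with depth as a term. Conserved against delta conserved, 1108 became 3193 of 15910 genes, 602 of 37929 and 56 under the same alternatives. SLNCR1 against vector, 1826 became 832, 492 and 46, and SLNCR1 against conserved, 1847 became 1192, 885 and 303. For the last comparisons in this order, trimmed means gave 1160, 2033 and 1993 calls, and totals gave 1231, 1932 and 1994. Trimmed-mean and total scaling moved the median of all genes by no more than the -0.0573 of delta conserved. With 2 libraries per group, a missed threshold does not show that a member was the same in both groups.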
